A study of Mus musculus with 3 samples.

Results

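The genes described here are 44 imprinted genes of the mouse, out of 29267 genes with an expected count in each table. They were chosen by symbol from a list of genes with known parental-copy-specific expression, joined to the deposited Ensembl identifiers through GENCODE M21, and all 44 symbols matched 1 identifier each. The list was chosen with earlier results of these data known, among them the fall of Igf2. The genes were grouped by chromosomal cluster and by the copy that is known to be expressed. Of these genes, 21 are expressed from the paternal copy and 12 from the maternal copy, and for 11 the bias is restricted to some tissues or transcripts.

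Imprinted genes are transcribed mainly or only from the copy inherited from one parent, and many of them lie together in clusters under a shared imprinting control region. DNA methylation of that region is set in the egg or the sperm and kept after fertilization, and long noncoding RNAs such as H19, Kcnq1ot1, Airn and Meg3 are transcribed from within the clusters. Many members act on fetal growth, and embryonic fibroblasts are known to express a large share of them. The counts used here add up both parental copies, so they measure the level of each gene and not its imprint.

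RNA-seq was done with a TruSeq RNA kit on libraries of mouse embryonic fibroblasts (MEFs) and embryonic stem cells (ESCs), 1 library for each sample. A first MEF sample came from OG2 mice, whose Oct4-GFP transgene lights up in pluripotent cells, and the other from ICR mice, and each was taken at passages 3 to 5. For the ESCs a single line was used, R1 at passage 30 and labelled naive. No treatment is named for the samples, and in the study MEFs are the starting cells of reprogramming and ESCs its reference end point. The 2 MEF samples differ in strain, so the spread between them holds both strain and sample differences, and the ESC side has no replicate.

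The expected counts, which are RSEM's estimated numbers of reads, summed to 5149312 and 4590619 for the OG2 and ICR samples and to 1717838 for the third library. Its markers went against its label in part. In that library, 21.9% of all genes with a count were at least 1 log2 unit higher than in both MEF samples, and 25.9% lower. Of 13 pluripotency markers, 7 were at least 1 log2 unit higher than in both MEF samples, with 71 counts of Pou5f1, 51 of Nanog and 32 of Sox2. Tdgf1 was among these 7 on 2 counts. Klf2 was lower than in both, with 63, 91 and 2 counts in OG2 MEFs, ICR MEFs and the library labelled ESC. In the same order the TPM of Klf2 was 13.42, 22.55 and 0.6. Zfp42, Dppa5a, Dppa4 and Utf1 had no count in any library, 5 of the 13 were at 0 in the library labelled ESC, and their summed TPM was 62.86 there against 21.79 and 33.11 in OG2 and ICR MEFs. Of 12 fibroblast markers, 11 were at least 1 log2 unit lower than in both MEF samples and none was at 0, with a summed TPM of 1189.96 against 15431.7 and 16039.2. Of 8 epithelial markers, 5 were higher by the same rule, with a summed TPM of 273.41 against 13 and 22.57. Among these 5, Cdh1 and Cldn7 had 2 and 3 counts, and Krt14 and Krt8 gave 204.86 and 54.09 TPM of the sum. This library is therefore called the library labelled ESC. It is the only library of its side, so no comparison with MEFs can be made without it.

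Levels between genes are given as TPM, a length-scaled abundance with a fixed sum per library. Differences between libraries are given on the scale of log2(CPM + 1), where CPM stands for counts per 1000000 counts after TMM scaling, and always as the library labelled ESC minus MEFs. A gene was called higher or lower when it was at least 1 log2 unit above or below both MEF samples. For genes with few counts, differences on this scale come out too small. Folds are ratios of TMM-scaled counts with exact conditional binomial intervals at 95%, which cover counting error only.

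Summed over the 44 genes, imprinted transcripts were more abundant in both MEF samples than in the library labelled ESC. H19 and Igf2 made up most of the MEF sums, and single members differed in direction. The summed TPM of the 44 genes was 15713.9 in the OG2 sample and 13623.5 in the ICR sample, against 1062.19 in the library labelled ESC. The members took 1.98% (OG2) and 1.66% (ICR) of all MEF counts and 0.186% of those in the library labelled ESC. H19 and Igf2 alone gave 65.3% and 57.8% of the members' summed TPM in the MEF samples and 2.42% in the library labelled ESC. In bulk samples, fewer cells that express a gene and less RNA per cell cannot be told apart. The fibroblast markers were lower in the same library, as given above, and their part in the members' differences was not tested.

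A count was found for 42 members, while Phlda2 and Usp29 had none in any library. Of the 42, 8 were higher, 21 lower and 13 neither. Among all 17810 genes with a count, 21.9% were higher and 25.9% were lower by the same rule. The median log2 difference of the counted members was -1.42, against -0.13 for all genes with a count. With at least 10 counts in 1 library it was -1.88 for members and -0.43 for all genes. With the genes that had 0 counts in 1 group set to their bound, the median of the members was -0.93, and no such median was taken for all genes. At least 10 counts in 1 library were reached by 38 members, of which 7 were higher and 21 lower, against 23.7% and 35.7% of the 12726 genes with that many counts. The same count is a higher CPM in the shallower library labelled ESC. This minimum therefore passes genes with more RNA in MEFs more easily, and its shares and medians are a description. When the deposited TPM replaced CPM, 1 member was higher and 27 were lower, among them all 21 of the lower members above. On that scale the median difference of all genes with 10 counts moved by -1.11 log2 units. After this shift was taken off, the recentred TPM gave 6 higher and 19 lower. Slc22a18, Ppp1r9a and Peg12 were then no longer higher, Meg3 was, and Asb4 and Zrsr1 were no longer lower.

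With 1 residual degree of freedom, the quasi-likelihood test of edgeR, adjusted after Benjamini and Hochberg, took its spread from the MEF pair and assumed that the lone library varies alike. At a threshold of 0.05 on the adjusted p it called 8 of 37 tested members higher and 21 lower, where it called 31.4% and 36% of all 12663 genes tested. Adjusted p-values below are those of this test unless DESeq2 is named. Members on which DESeq2 and edgeR differed are named with the dependence on the processing, and the DESeq2 share over all genes is not given. The size rule and edgeR shared 6 higher and 20 lower members. Ascl2 and Rasgrf1 were higher by size only, Blcap and Meg3 by edgeR only, Airn was lower by size only and Slc38a4 by edgeR only.

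**Figure D1:**
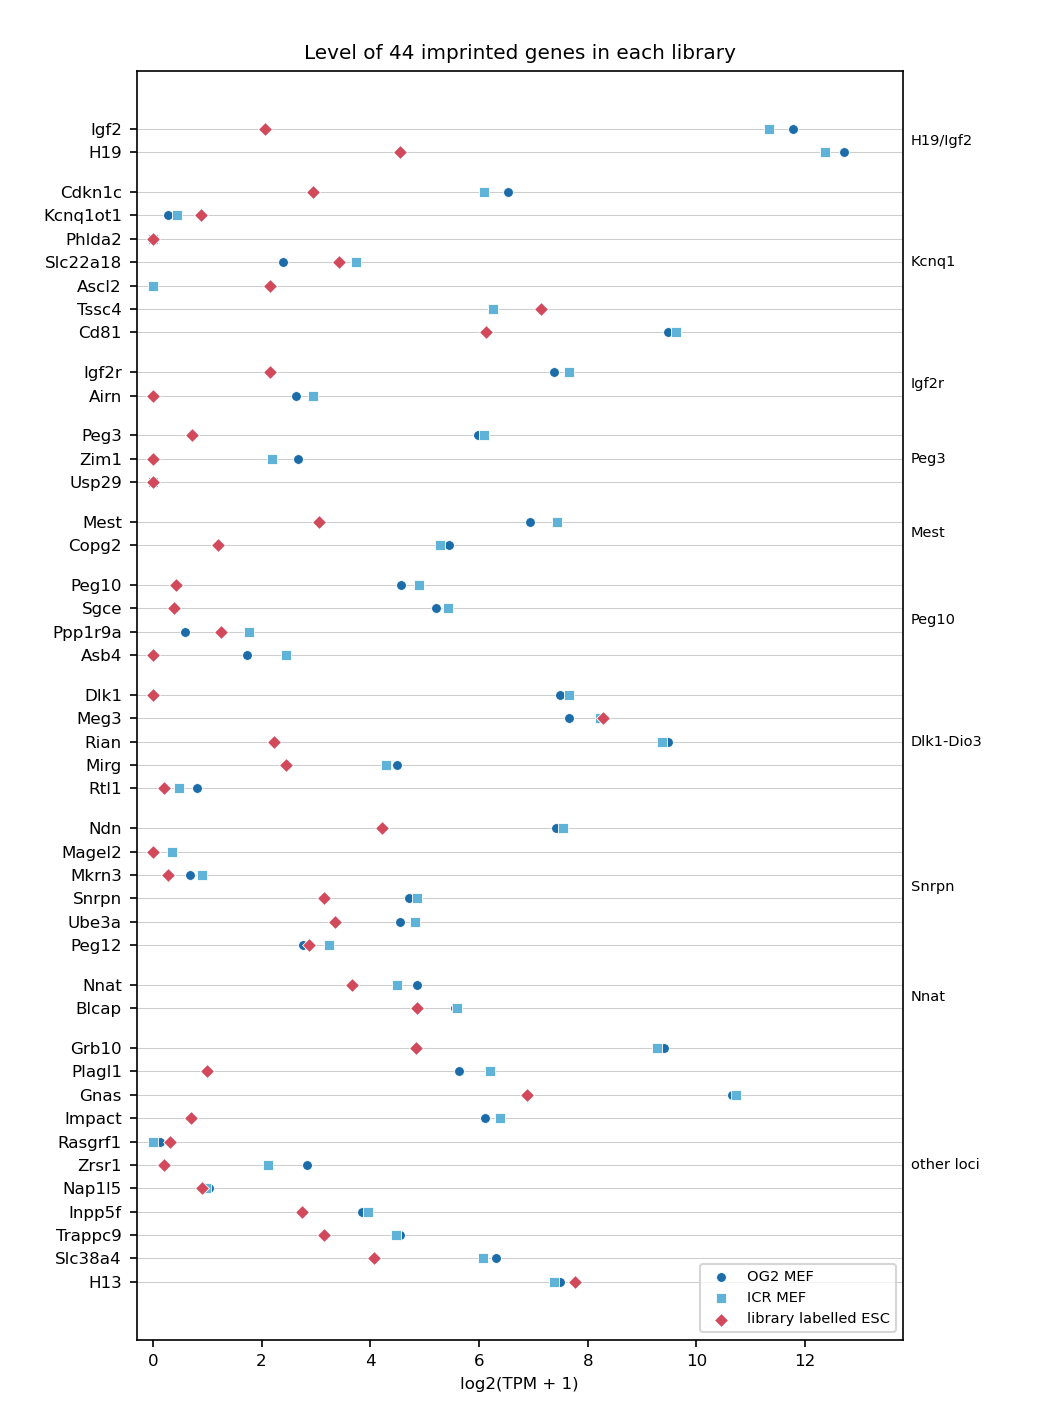
Level of each of the 44 imprinted genes as log2(TPM + 1) on the horizontal axis, with 1 point for each library and genes grouped by cluster. H19 and Igf2 sit farthest to the right in both MEF samples, at 6738.82 and 3523.37 TPM in OG2 MEFs, while Meg3, at 309.16 TPM, is 1 of 14 members that were neither higher nor lower by the size rule on this scale.

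The order of levels was led by H19 in MEFs, with a mean of 6022 ± 1014 TPM (SD, n = 2), followed by Igf2 with 3049 ± 671 and Gnas with 1646 ± 57.8 TPM. Cd81 came next at 753 ± 56.8 TPM, and its 2 values did not overlap those of Gnas above or Rian below. Rian (684 ± 36.7 TPM) and Grb10 (646 ± 36.6 TPM) had overlapping values, so their order is not resolved. The levels of Meg3 (249 TPM) did not overlap those of Dlk1. From Dlk1 (189 TPM) through Igf2r, Ndn and H13 down to Mest (147 TPM), each neighbour overlapped the next. In all, 12 members had at least 100 TPM in both MEF samples, and 8 had a MEF mean under 1 TPM. In the library labelled ESC, 4 members exceeded 100 TPM, namely Meg3, H13, Tssc4 and Gnas.

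**Figure D2:**
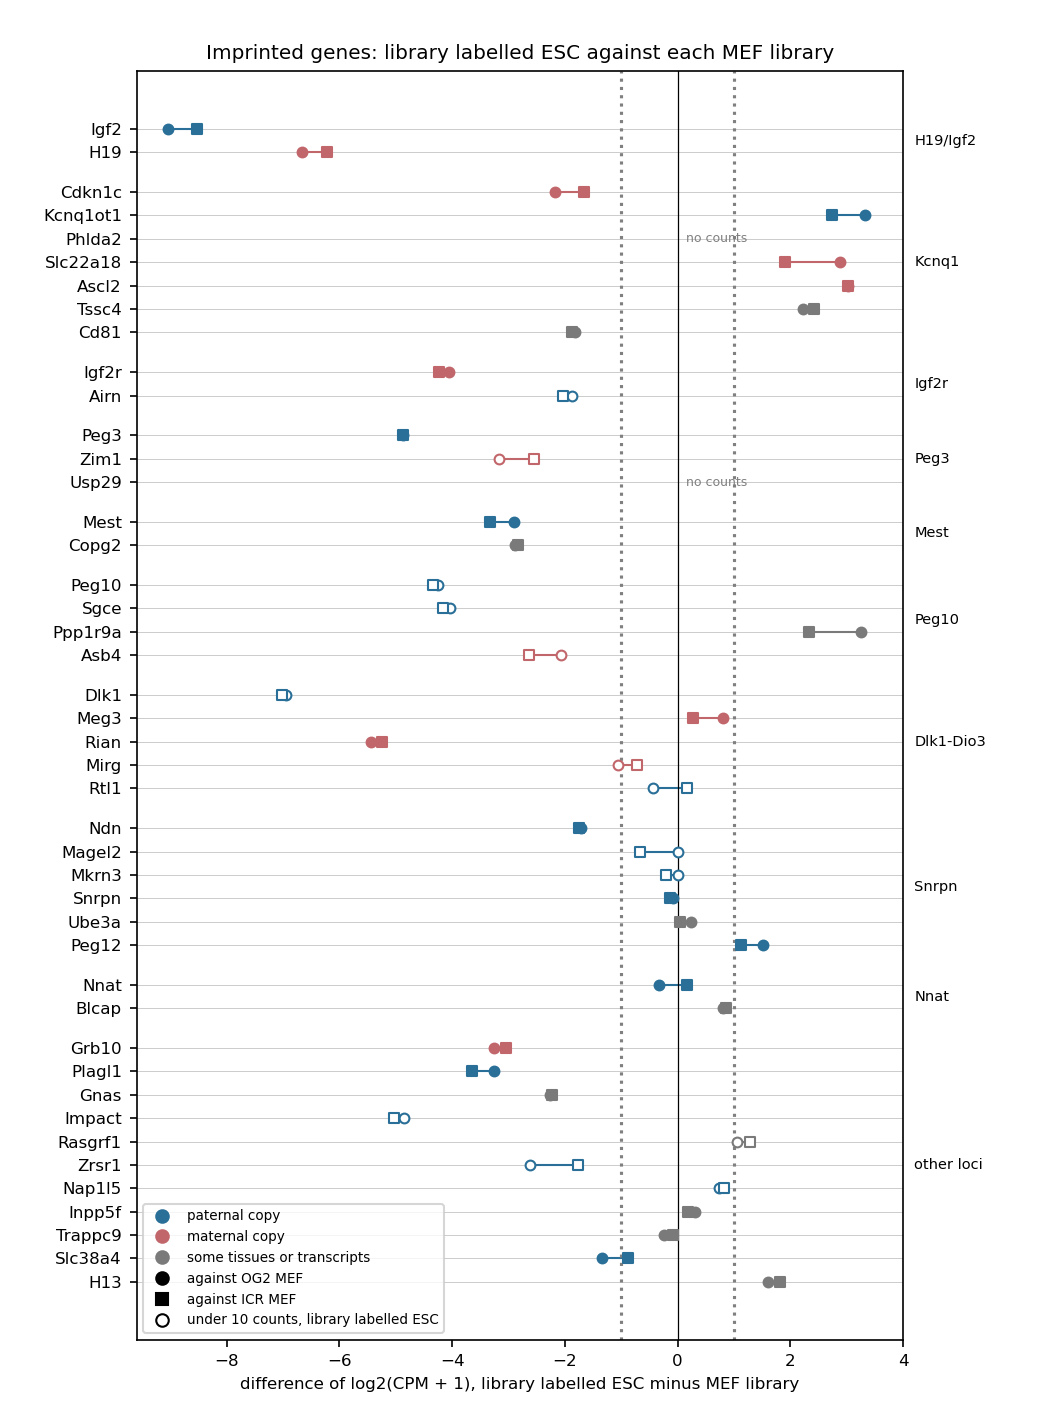
Difference of log2(CPM + 1) between the library labelled ESC and each MEF sample for the 42 members with a count, with circles for OG2 and squares for ICR MEFs, colours for the expressed copy and open symbols for fewer than 10 counts in the library labelled ESC. The dotted lines mark 1 log2 unit. The symbols of 21 members lie below -1 against both samples and those of 8 lie above 1. With the deposited TPM only Ascl2 of these 8 stayed higher and Peg12 changed sign. With recentred TPM, Slc22a18, Ppp1r9a and Peg12 of these 8 were no longer higher.

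The H19/Igf2 cluster on chromosome 7 holds a fetal growth factor and a noncoding RNA that share enhancers, and both were far lower in the library labelled ESC than in either MEF sample. Igf2 (insulin-like growth factor 2, ENSMUSG00000048583, GRCm38 chr7:142650766-142666816, minus strand) is expressed from the paternal copy. H19 (ENSMUSG00000000031, chr7:142575529-142578143, minus strand) is a maternally expressed long noncoding RNA, 72.6 kb from Igf2. Igf2 had 26421 counts in the OG2 sample, 16901 in the ICR sample and 11 in the library labelled ESC, or 3523.37, 2574.26 and 3.16 TPM. At the MEF level after TMM scaling, 5550 counts would have been drawn in the library labelled ESC. The log2 difference was -8.78 and Igf2 was 508-fold lower (284 to 1019). Igf2 was known beforehand as the largest fall of all genes in these data, so its size is given as a description. For H19 the counts were 39567, 26529 and 95 in the same order, or 6738.82, 5304.76 and 22.51 TPM. That is a log2 difference of -6.44 and a fold of 89.8 (73.5 to 111, adjusted p by edgeR = 7.45e-07). The samples of both genes were ordered alike, with OG2 above ICR and the library labelled ESC far below both. The TPM ratio of H19 to Igf2 was 1.91 in the OG2 sample, 2.06 in the ICR sample and 7.12 in the library labelled ESC, where it rests on 11 counts of Igf2.

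Both genes hold a microRNA, and the mature sequences are shown because they define which small RNAs these 2 transcripts can carry. They are RefSeq sequences on GRCm38.p6, with the seed at bases 2 to 8 in capitals. The arms of miR-675 lie within H19 at chr7:142577078-142577099 and chr7:142577112-142577133, and miR-483-3p lies within Igf2 at chr7:142654932-142654952, all on the minus strand like their hosts. The seeds of the 3 differ. Small RNAs were not measured, so the host counts do not give the level of the microRNAs.
miR-675-3p: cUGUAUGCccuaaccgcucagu
miR-675-5p: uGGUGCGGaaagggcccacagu
miR-483-3p: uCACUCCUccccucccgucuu

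In the Kcnq1 cluster, 536.3 kb of chromosome 7 distal to Igf2, members moved in both directions, with 4 higher, 2 lower and 1 without counts. Over all genes with a count, 21.9% were higher and 25.9% lower. Cdkn1c, a maternally expressed inhibitor of cyclin-dependent kinases that restrains growth, had 442, 281 and 23 counts in OG2 MEFs, ICR MEFs and the library labelled ESC. Its log2 difference was -1.92 and it was 4.06-fold lower (2.68 to 6.44, adjusted p by edgeR = 0.00112). Cd81, a tetraspanin of the cell surface, had 2713, 2594 and 190 counts and was 3.61-fold lower (3.12 to 4.19) with a log2 difference of -1.84. The MEF samples of Cd81 lay close together and the library labelled ESC stood clearly below. Kcnq1ot1, the paternally expressed antisense RNA that silences neighbours in this cluster, had 52, 74 and 142 counts. It was 8.73-fold higher (6.82 to 11.2, adjusted p by edgeR = 5.19e-06), with a log2 difference of 3.04 and levels of 0.22, 0.37 and 0.86 TPM. Since the counting is not stated to use strand, reads of Kcnq1ot1 and of the gene on the other strand cannot be told apart. Kcnq1, counted among the further imprinted genes below, had no count in any library.

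Tssc4, a gene of this cluster with a function in splicing complexes, had 241, 194 and 285 counts and was 5.08-fold higher (4.36 to 5.91), with a log2 difference of 2.32. Slc22a18, a maternally expressed transporter gene, had 10, 23 and 27 counts and a log2 difference of 2.39. Its MEF values differed by a ratio of 2.51 (1.15 to 5.90), ICR over OG2. Ascl2, a maternally expressed transcription factor needed for the placenta, had no count in either MEF sample and 10 in the library labelled ESC, where it was at least 12.4-fold higher than the ICR MEF floor of 3 counts. Tssc4, Slc22a18 and Kcnq1ot1 kept a positive difference with TPM (0.89, 0.35 and 0.52 log2 units) but were under 1 log2 unit there. Phlda2, a maternally expressed gene that limits placental growth, had no counts, which at 3 counts allows up to 0.532, 0.580 and 2.15 CPM in the same order of libraries.

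**Figure D3:**
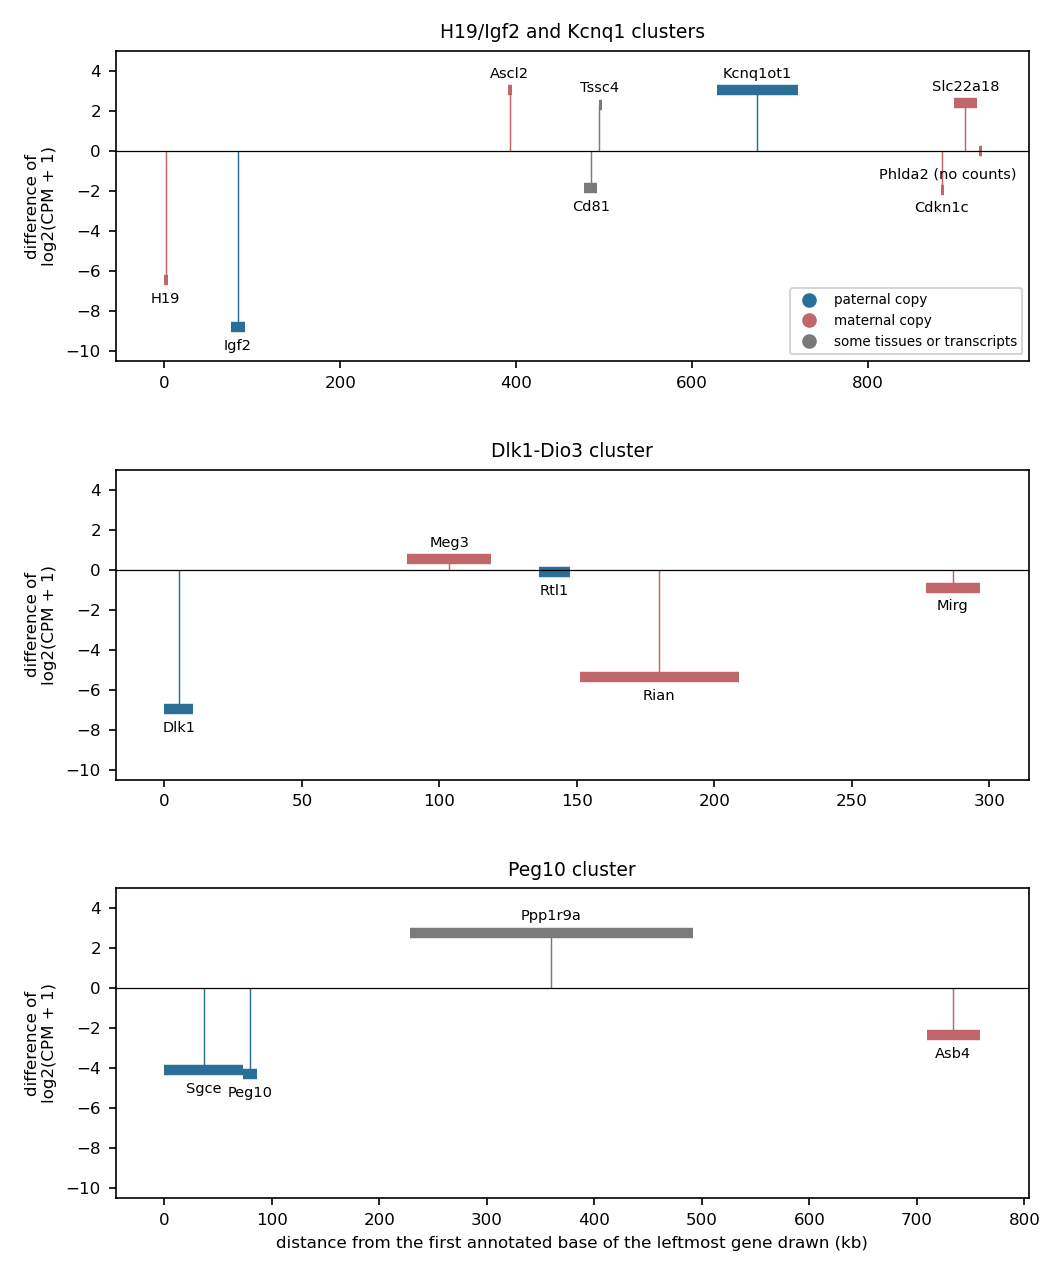
Difference of log2(CPM + 1), library labelled ESC minus the MEF mean, against distance in kb along 3 stretches of the genome, with each bar as wide as its gene and coloured by the expressed copy. H19 and Igf2 lie at -6.44 and -8.78 while Kcnq1ot1 lies at 3.04. Dlk1 and Rian lie at -6.98 and -5.34 on either side of Meg3 at 0.54. The value of Meg3 becomes -0.17 after a correction for GC content and 1.45 with recentred TPM.

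The Dlk1-Dio3 cluster on chromosome 12 held neighbours of high MEF level with different outcomes. Dlk1 is a paternally expressed transmembrane protein that holds back adipocyte differentiation, and Meg3 and Rian are maternally expressed noncoding RNAs of the same 296.6 kb. Dlk1 had 689, 666 and 0 counts in OG2 MEFs, ICR MEFs and the library labelled ESC, where 175 would have been drawn at the MEF level after TMM scaling. It was at least 58.4-fold lower, taken against 3 counts (adjusted p by edgeR = 9.67e-07). Rian had 3044, 2446 and 16 counts, or 710.2, 658.29 and 3.71 TPM, and was 44.3-fold lower (27.3 to 77.5, adjusted p by edgeR = 7.76e-07). Meg3 stayed at a high level in all 3 libraries, with 896, 1187 and 387 counts and 201.23, 297.54 and 309.16 TPM. Its log2 difference was 0.54, which the size rule did not call, while edgeR gave an adjusted p of 0.0246. That direction turned to -0.17 log2 units after a correction for GC content. With recentred TPM the difference of Meg3 was 1.45, which the size rule called higher. The TPM ratio of Rian to Meg3 was 3.53 in the OG2 sample, 2.21 in the ICR sample and 0.0120 in the library labelled ESC.

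The remaining members of this cluster had few counts. Mirg, a maternally expressed host of microRNAs, had 48, 34 and 5 counts and a log2 difference of -0.89, and it was not called by the size rule or by edgeR (adjusted p = 0.224). Rtl1, a paternally expressed retrotransposon-derived gene needed in the placenta, had 13, 6 and 2 counts, and the transcripts on its other strand cannot be told apart from it here.

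Promoter windows of Dlk1 and Meg3 are shown because these neighbours, 77.7 kb apart on the same strand, differed in outcome. Each runs from 250 bases before to 50 bases after the annotated start, in RefSeq on GRCm38.p6 and on the plus strand, at chr12:109452573-109452872 for Dlk1 and chr12:109540746-109541045 for Meg3. Capitals mark matches on either strand to TATAAA, to TGCCGC, the methylation-dependent hexamer that ZFP57 binds, or to GCCATNTT, a core of the YY1 motif. In the shown window of Meg3, 2 overlapping TATAAA matches and 1 TGCCGC match were found. None of the 3 motifs occurred in that of Dlk1, so it has no capitals. A further window of Meg3, at chr12:109545148-109545447, also held none of the 3, so the contrast depends on the start chosen.
Dlk1: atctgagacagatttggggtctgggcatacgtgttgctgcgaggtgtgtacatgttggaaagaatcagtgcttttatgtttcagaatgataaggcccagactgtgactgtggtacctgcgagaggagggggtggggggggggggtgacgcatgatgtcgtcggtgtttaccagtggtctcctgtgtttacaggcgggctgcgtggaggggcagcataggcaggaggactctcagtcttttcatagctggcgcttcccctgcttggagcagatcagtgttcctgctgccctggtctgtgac
Meg3: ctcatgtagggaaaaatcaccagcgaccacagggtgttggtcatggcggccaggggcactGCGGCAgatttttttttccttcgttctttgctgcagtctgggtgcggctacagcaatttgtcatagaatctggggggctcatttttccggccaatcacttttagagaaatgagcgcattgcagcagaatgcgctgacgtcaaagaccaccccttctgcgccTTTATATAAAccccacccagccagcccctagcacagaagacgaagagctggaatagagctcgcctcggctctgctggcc

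The table held such windows for 37 of the 44 members, 54 in all, since some genes have several starts. TATAAA occurred in 11 of the 54, or 20.4%, against 13.6% of the 32851 windows in the table. TGCCGC also occurred in 11 of 54, against 11.6% of all windows, and GCCATNTT in 3 of 54, or 5.56%, against 6.05%. The windows of the members held a median of 13.5 CpG dinucleotides against 7 over all windows, with a GC content of 57.5% against 52.7%. By outcome, the median was 21 CpG in the 9 windows of higher members, 15 in the 26 of lower members and 10 in the 17 of members that were neither. Windows of 1 gene overlap in part, so these numbers are a description.

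The noncoding RNAs of this cluster also carry microRNAs, of which 1 per host is shown, again with the seed in capitals. By hairpin entries within the annotated genes, Mirg holds 14 on its own strand, Rian 3 and Meg3 1. Beside these, the mature sequence of miR-1906 lies within Meg3 on the same strand. Of these hosts, Rian was lower in the library labelled ESC, and Meg3 was not. The positions are chr12:109563710-109563731 for miR-770-5p in Meg3, chr12:109618305-109618326 for miR-370-3p in Rian and chr12:109743764-109743784 for miR-410-3p in Mirg, all on the plus strand. No pair of them shares a seed. Within Mirg, miR-453 and miR-496a-5p share the seed GGUUGCC.
miR-770-5p: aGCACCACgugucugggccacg
miR-370-3p: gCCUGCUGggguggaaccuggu
miR-410-3p: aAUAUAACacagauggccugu

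Both members of the Igf2r cluster on chromosome 17 were lower. Igf2r, the maternally expressed receptor that takes Igf2 to the lysosome, had 4067, 4199 and 59 counts in OG2 MEFs, ICR MEFs and the library labelled ESC, or 166.00, 200.75 and 3.43 TPM. It was 18.1-fold lower (14.0 to 23.8), with a log2 difference of -4.15 (adjusted p by edgeR = 1.39e-06). Airn, the paternally expressed antisense RNA that represses Igf2r, had 15, 16 and 0 counts and was at least 1.34-fold lower, with an adjusted p by edgeR of 0.0508. Airn overlaps Igf2r over 28354 bases, and reads in that overlap cannot be assigned to a strand here.

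In the Peg3 cluster on chromosome 7, Peg3 and Zim1 were lower. Peg3, a paternally expressed zinc finger gene, had 1469, 1341 and 11 counts, or 62.31, 67.03 and 0.65 TPM. It was 33.0-fold lower (18.4 to 66.1), with a log2 difference of -4.88 (adjusted p by edgeR = 9.51e-07). The MEF samples of Peg3 did not differ beyond counting error, with a ratio of 1.00 (0.933 to 1.08), OG2 over ICR. Zim1, a maternally expressed zinc finger gene 7.44 kb away, had 45, 25 and 0 counts and was at least 2.98-fold lower, without a DESeq2 call (adjusted p = 0.0645). Usp29, a paternally expressed ubiquitin protease gene that starts 146 bases from Peg3 on the opposite strand, had no counts in any library. The shared start region is shown as the Peg3 window, chr7:6730370-6730669 on the minus strand, because transcripts of 1 of the 2 directions only were counted. It holds none of the 3 motifs and therefore no capitals.
Peg3: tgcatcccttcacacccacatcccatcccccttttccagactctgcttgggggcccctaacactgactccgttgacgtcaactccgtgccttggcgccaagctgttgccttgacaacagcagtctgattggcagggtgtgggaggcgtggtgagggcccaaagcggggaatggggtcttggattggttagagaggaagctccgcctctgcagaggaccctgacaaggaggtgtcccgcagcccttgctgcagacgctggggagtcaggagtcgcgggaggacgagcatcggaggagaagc

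Mest and Copg2 overlap by 912 bases on chromosome 6 and were both lower. Mest, a paternally expressed gene of the hydrolase fold whose loss reduces growth, had 788, 981 and 25 counts and was 9.13-fold lower (6.17 to 14.2), with a log2 difference of -3.11. Copg2, a subunit of the COPI coat of transport vesicles, had 335, 296 and 10 counts and was 8.15-fold lower (4.40 to 17.1), with a log2 difference of -2.86. Both were called by edgeR (adjusted p = 2.78e-05 and 3.36e-05). Of the Mest windows, 1 of the 2 with the most CpG, chr6:30737800-30738099 on the plus strand, is shown because it holds TGCCGC 2 times in capitals, both as the reverse complement, and miR-335-5p, inside the gene at chr6:30741314-30741336, is shown with its seed.
Mest: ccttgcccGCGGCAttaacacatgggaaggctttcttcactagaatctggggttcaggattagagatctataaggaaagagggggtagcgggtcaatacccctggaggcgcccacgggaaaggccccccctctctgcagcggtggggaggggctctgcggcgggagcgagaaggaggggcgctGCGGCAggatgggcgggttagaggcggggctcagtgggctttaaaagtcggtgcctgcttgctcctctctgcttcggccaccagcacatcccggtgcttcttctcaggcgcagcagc
miR-335-5p: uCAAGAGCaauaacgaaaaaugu

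In the Peg10 cluster on chromosome 6, which spans 758.7 kb, Peg10, Sgce and Asb4 were lower and Ppp1r9a was higher. Peg10, a paternally expressed retrotransposon-derived gene needed for the placenta, had 331, 323 and 3 counts, a ratio of 28.1 (9.59 to 137). Sgce (epsilon-sarcoglycan), which starts 98 bases from Peg10 and runs the other way, had 153, 153 and 1 counts, a ratio of 39.5 (7.04 to 1565). The log2 differences of this divergent pair were -4.29 and -4.10, and both MEF samples lay far above the library labelled ESC. Asb4, a maternally expressed ankyrin repeat gene, had 18, 27 and 0 counts and was at least 1.96-fold lower. Ppp1r9a, a maternally biased gene that encodes the actin-binding protein neurabin, had 6, 15 and 26 counts and a log2 difference of 2.79. With TPM that difference was 0.09 log2 units, under the size rule. It was 1.20 with recentred TPM, where the rule was not met against both MEF samples.

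In the Snrpn cluster on chromosome 7, known from Prader-Willi and Angelman syndromes, 4 of 6 members were neither higher nor lower on the CPM scale. Of these 4, Snrpn and Ube3a were lower with the deposited TPM, which moved the median of all genes with 10 counts by -1.11 log2 units. With recentred TPM neither of these 2 was called, at -0.53 and -0.22. Ndn (necdin), a paternally expressed growth suppressor of neurons, had 701, 662 and 52 counts in OG2 MEFs, ICR MEFs and the library labelled ESC. It was 3.38-fold lower (2.57 to 4.55), with a log2 difference of -1.73 (adjusted p by edgeR = 1.02e-04). Snrpn, which encodes a protein of spliceosomal particles, had 125, 119 and 29 counts and a ratio of MEFs over the library labelled ESC of 1.09 (0.737 to 1.66), and its log2 difference was -0.11 with CPM and -1.65 with TPM. Ube3a, a ubiquitin ligase with a maternal bias in neurons, had 309, 325 and 90 counts and a ratio of 0.909 (0.728 to 1.15), and its log2 difference of 0.13 with CPM turned to -1.33 with TPM. The intervals cover counting error on the CPM scale only. Peg12 had 40, 50 and 31 counts and a log2 difference of 1.32, which became -0.13 with TPM, so its direction depends on the scaling, and DESeq2 did not call it (adjusted p = 0.110). With recentred TPM the difference of Peg12 was 0.99. Magel2 had 0, 3 and 0 counts and Mkrn3 had 4, 5 and 1, too few to compare.

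Nnat and Blcap, where Nnat lies whole within Blcap over 2445 bases of chromosome 2, were not called by the size rule. Nnat (neuronatin), a paternally expressed proteolipid, had 78, 49 and 15 counts and a ratio of MEFs over the library labelled ESC of 1.09 (0.638 to 2.01). Blcap had 244, 215 and 106 counts and a log2 difference of 0.83 (adjusted p by edgeR = 8.82e-04), which became -0.71 with TPM. With recentred TPM the difference of Blcap was 0.40, which the size rule did not call. The counts of this pair are uncertain where the genes overlap.

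Of the 11 members at single loci, 2 were higher and 5 lower, beside 21.9% and 25.9% of all genes with a count. Grb10, a maternally expressed adaptor that restrains insulin and IGF receptor signalling, had 9189, 7269 and 238 counts, or 672.39, 620.59 and 27.83 TPM. It was 8.93-fold lower (7.85 to 10.2), with a log2 difference of -3.14 (adjusted p by edgeR = 5.41e-06). Gnas, a complex locus that encodes the stimulatory G protein alpha subunit and further transcripts of either copy, had 6944, 6288 and 359 counts and was 4.76-fold lower (4.28 to 5.30), while at 116.55 TPM it remained among the members of higher level in the library labelled ESC. Both genes were lower by far more than the MEF samples differed from each other.

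Plagl1 and Impact, which are paternally expressed, were lower as well. Plagl1, a zinc finger factor that restrains the cell cycle, had 433, 523 and 10 counts and was 12.3-fold lower (6.68 to 25.8). Impact, a regulator of translation, had 622, 650 and 4 counts and was 41.1-fold lower (16.0 to 151), with a log2 difference of -4.94. Zrsr1, a retrogene that encodes a splicing factor, had 54, 25 and 1 counts, a ratio of 10.2 (1.78 to 408), and DESeq2 did not call it (adjusted p = 0.183).

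Slc38a4, a paternally expressed amino acid transporter, had 671, 447 and 65 counts. It was 2.22-fold lower (1.73 to 2.90, adjusted p by edgeR = 0.00795), and its log2 difference of -1.11 reached 1 log2 unit against OG2 MEFs only. H13, a signal peptide peptidase, had 1012, 797 and 765 counts and was 3.28-fold higher (3.01 to 3.57), with a log2 difference of 1.71 (adjusted p by edgeR = 1.57e-05) and 0.33 with TPM. Inpp5f had 126, 127 and 39 counts, a ratio of MEFs over the library labelled ESC of 0.837 (0.596 to 1.21). Trappc9 had 235, 192 and 49 counts, a ratio of 1.12 (0.836 to 1.54). The intervals of both genes include 1. With the deposited TPM both were lower, Inpp5f with a log2 difference that turned from 0.24 to -1.15 and Trappc9 with one of -1.35. With recentred TPM neither was called, at -0.04 and -0.24, and H13 was higher at 1.44. Rasgrf1 had 1, 0 and 2 counts, all at or under 3 counts although its difference passed the size rule, and Nap1l5 had 5, 4 and 3.

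**Figure D4:**
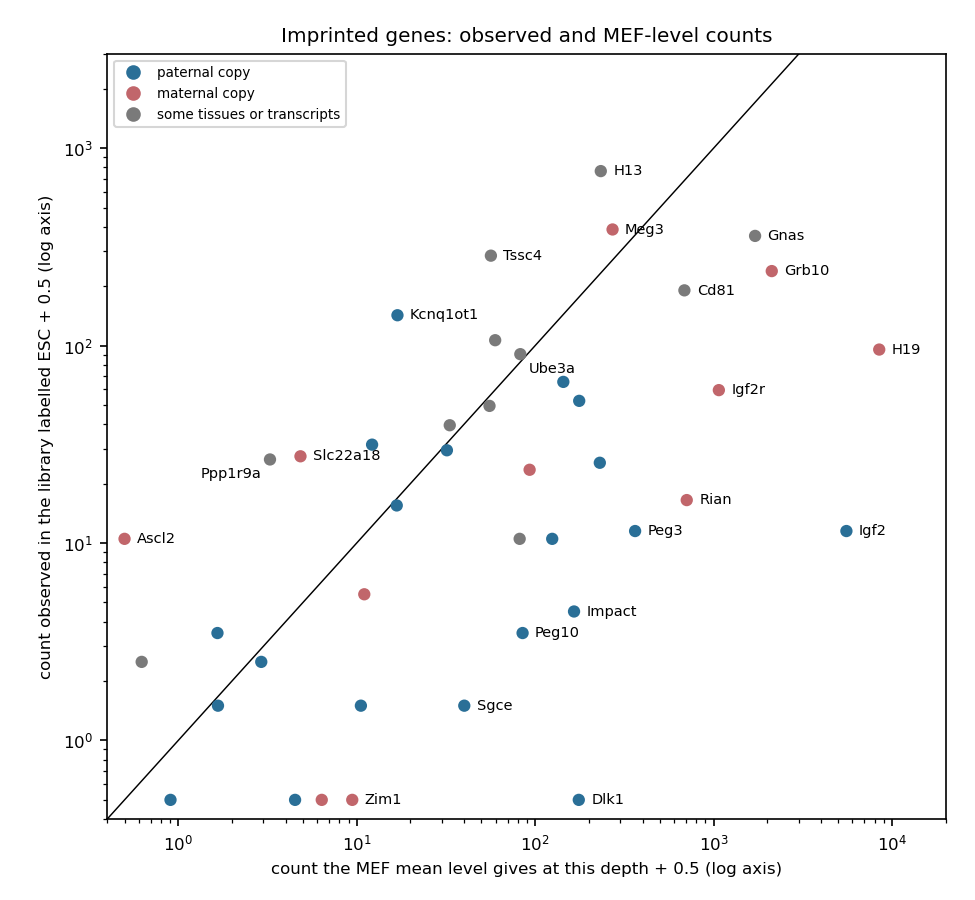
Count observed in the library labelled ESC against the count that the MEF mean would give at its TMM-scaled depth. Each is plus 0.5 on log axes, for the 42 members with a count, coloured by the expressed copy. The line marks equal values. Igf2 lies farthest below it with 11 counts against 5550 and Dlk1 has 0 against 175, while H13 lies above it with 765 against 233.

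Calls by the copy expressed are given beside the shares over all genes with a count, 21.9% higher and 25.9% lower by the same size rule. Of the 21 paternally expressed genes, 2 were higher, 11 lower, 7 neither and 1 had no count, with a median log2 difference of -1.84. Of the 12 maternally expressed genes, 2 were higher, 7 lower, 2 neither and 1 had no count, with a median of -2.35. The 11 genes with a restricted bias had 4 higher, 3 lower and 4 neither, with a median of 0.24. By the size rule, genes known as paternally and as maternally expressed were both among the lower members in the H19/Igf2, Igf2r, Peg3, Peg10 and Dlk1-Dio3 clusters. In the last of these the maternally expressed Meg3 and Mirg were not lower, Airn was not called by edgeR, and Zim1 and Asb4 were not called by DESeq2. The differences between these groups were not tested.

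Between the MEF samples, 1 library for each strain, no member was 1 log2 unit apart on log2(CPM + 1). On this scale 2.76% of all genes with a count and 3.26% of those with 10 counts were. It makes differences of genes with few counts too small, and 4 members were apart with a pseudocount of 0.1. By the ratio of counts, Slc22a18 (2.51-fold, 1.15 to 5.90) and Ppp1r9a (2.73-fold, 0.999 to 8.57) passed 1 log2 unit, both with more in ICR MEFs. The median size of the OG2 minus ICR difference was 0.204 log2 units for members with 10 counts and 0.185 for all genes with 10 counts. Of 39 members with a count in both, the counting interval of the ratio lay above 1 for OG2 over ICR in 9 genes and below 1 in 7. The share of all genes with such an interval was not taken, so these counts are not set against it. The interval is narrowest for genes with many counts, which therefore pass more easily. OG2 MEFs had more of Igf2 (1.43-fold, 1.41 to 1.46), H19 (1.37-fold, 1.35 to 1.39), Cdkn1c (1.44-fold), Slc38a4 (1.38-fold), Grb10, Rian, H13, Nnat and Zrsr1. ICR MEFs had more of Meg3 (1.44-fold, 1.32 to 1.58), Mest (1.36-fold), Plagl1 (1.32-fold), Kcnq1ot1 (1.55-fold), Slc22a18, Igf2r and Impact. H19 and Igf2 were thus both higher in OG2 MEFs, while Rian and Meg3 of 1 cluster differed in opposite directions. These intervals hold no spread between samples of a strain, so strain and sample cannot be told apart.

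**Figure D5:**
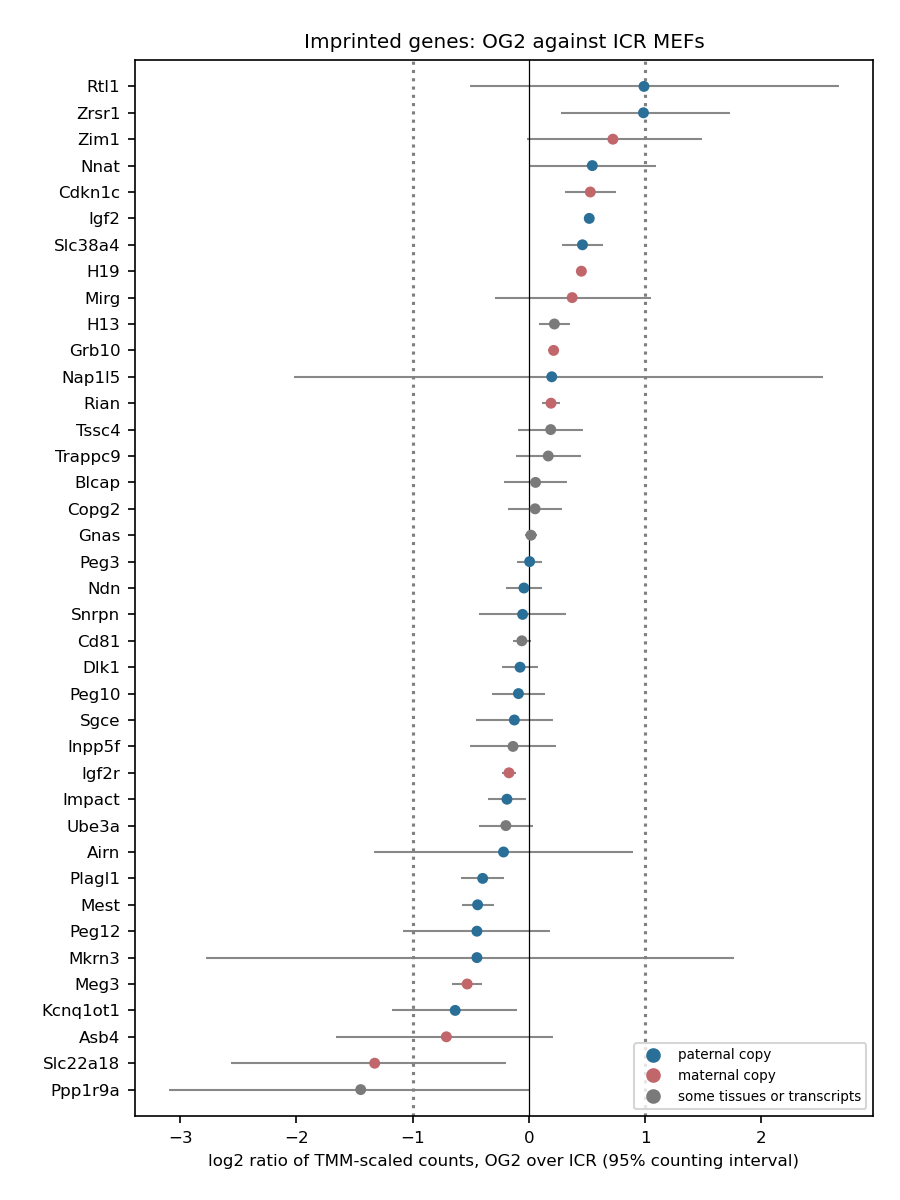
Log2 ratio of TMM-scaled counts in OG2 over ICR MEFs for 39 members with a count in both, with bars for the 95% counting interval and dotted lines at 1 log2 unit. Igf2 and H19 lie to the right of 0 with narrow intervals, at 1.43-fold and 1.37-fold, and Meg3 lies to the left, 1.44-fold higher in ICR MEFs. Slc22a18 and Ppp1r9a lie beyond the left dotted line with wide intervals.

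Further imprinted genes outside the 44 were counted as a list of 40, of which 37 matched the tables and 30 had a count. Of these, 12 were lower and 3 higher, with a median log2 difference of -0.81, and edgeR called 4 higher and 10 lower. Over all genes the shares are 21.9% higher and 25.9% lower by size and 31.4% and 36% by edgeR. The lower ones included Pon3, an esterase gene beside Peg10, with 65, 106 and 0 counts and a difference of -4.04. Osbpl5, an oxysterol-binding protein gene of the Kcnq1 cluster, had 720, 657 and 12 counts and a difference of -3.74. Ano1, Cobl and Begain were higher, and Ano1, a chloride channel gene, had 35, 46 and 126 counts. Dcn, also lower, is a fibroblast marker as well, and the part of cell makeup in these differences was not tested.

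Of 22 factors that set, keep or read imprints, 5 were higher and 7 lower by size, 7 and 7 by edgeR, with a median log2 difference of -0.23. These counts are near the shares over all genes, 21.9% and 25.9% by size and 31.4% and 36% by edgeR. Zfp57 and Trim28, the zinc finger protein that binds imprinting control regions and its corepressor, were higher with CPM, with log2 differences of 1.33 and 1.31. The TPM of Trim28 was also higher, while that of Zfp57 was 23.93, 34.02 and 20.87 in OG2 MEFs, ICR MEFs and the library labelled ESC, so its direction turned with TPM. Dnmt1, the maintenance DNA methyltransferase, was lower with 707, 687 and 31 counts and a difference of -2.49. Uhrf1, its partner at replicated DNA, was higher with CPM by 1.35 log2 units but not with TPM, at 45.93, 47.81 and 41.31. The TPM comparisons of Zfp57 and Uhrf1 include the shift of -1.11 log2 units over all genes with 10 counts. Zfp445, another zinc finger protein that maintains imprints, had 89, 110 and 0 counts. Ctcfl, the germ cell paralog of the insulator protein Ctcf, had no count in MEFs and 195 in the library labelled ESC, whereas Ctcf had 325, 277 and 21 counts and a difference of -1.82.

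Among 13 genes of the IGF pathway, to which Igf2, Igf2r and Grb10 belong, 1 was higher and 6 were lower by size, and edgeR called 2 higher and 6 lower, beside 21.9% and 25.9% of all genes by size and 31.4% and 36% by edgeR. The receptor Igf1r had 504, 406 and 13 counts with a log2 difference of -3.04, and the adaptor Irs1 had 331, 408 and 13 with a difference of -2.74. Igfbp5, a secreted binding protein of IGFs, had 3289, 1809 and 32 counts with a difference of -4.24, while Igfbp4, another one, was higher with CPM by 1.51 log2 units and lower than both MEF samples with TPM, at 69.53, 88.73 and 52.78. The TPM comparison of Igfbp4 includes the shift of -1.11 log2 units over all genes with 10 counts. The median over the 13 genes was -0.80 with CPM.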

How the data were processed

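RNA-seq of OG2 MEFs, ICR MEFs and the library labelled ESC was analysed, with 1 library each. The submitters' processing notes name mm10, Bowtie and RSEM, while the paper describes alignment to an Ensembl transcriptome index with bowtie2 and RSEM. The annotation release behind the tables is therefore unsure. In the deposited tables, the authors used RSEM to estimate an expected count for each gene. TPM in the same deposited tables is that estimate divided by gene length and brought to a fixed sum by the authors with RSEM. FPKM, which the authors' RSEM scaled by length and library size in the deposited tables, was not used. Expected counts were rounded and scaled with TMM in edgeR 4.0.16 under R 4.3.3, with a pseudocount of 1. The count test was edgeR's quasi-likelihood test (glmQLFit, glmQLFTest) with filterByExpr, fitted over all genes, with DESeq2 1.42.0 as an alternative. The edgeR code was also run on simulated data that gave the same spread to all libraries. That run cannot check whether the lone library varies like the MEF pair. Genes on the size rule had to reach 1 log2 unit against both MEF samples.

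All 44 members were to be named, in full where 1 library had at least 10 counts. The members, the further gene lists and the tests were chosen with earlier results of these data known. The alternatives were pseudocounts of 0.1 and 5, full-quantile normalization by limma 3.58.1, size factors by the median of ratios, TPM, corrections over 20 bins of GC content or length, a minimum of 10 counts, no filter, and each MEF sample left out. TPM recentred on the median of all genes was added after seeing the data. Depths give a floor of 3 counts at 0.532, 0.580 and 2.15 CPM after scaling. Intervals and floors cover counting error only, since PCR copies were not marked by molecular identifiers. A later normalization for GC content is described in the paper, and the whole-table values used here were taken as preceding it. RSEM divides reads shared by several genes, and expected counts were not whole for 9.59%, 10.1% and 11.1% of the genes. Symbols and positions came from GENCODE M21 on GRCm38, which matched 98.25% of the identifiers. Promoters and microRNAs were RefSeq sequences on GRCm38.p6. Python 3.11.15 with numpy 2.4.6, pandas 2.3.3, scipy 1.17.1 and matplotlib 3.10.9 was used.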

Additional observations from a re-analysis of the deposited data

How the results depend on the processing

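The count of higher members was 8 and fell to 1, Ascl2, with TPM, and it was 6 to 9 under the other alternatives. The count of lower members was 21 and ranged from 17 to 27. With each MEF sample left out in turn, 8 members were higher, 21 to 23 were lower and the median log2 difference was -1.27 to -1.52. That median, -1.42, was -0.76 with a pseudocount of 5, -1.23 with median-of-ratios size factors, -2.10 with TPM, -0.99 with recentred TPM, -1.13 after the GC correction, -1.97 after the length correction and -1.88 with a minimum of 10 counts. The number of members at least 1 log2 unit apart between the MEF samples, 0, was 4 with a pseudocount of 0.1, 2 with TPM and 1 after the length correction. Among members called by the size rule or edgeR, the direction turned for Peg12 (-0.13) and Blcap (-0.71) with TPM and for Meg3 (-0.17) after the GC correction, and the cause was not tested. It also turned under at least 1 alternative for 6 members not called, Inpp5f, Nnat, Rtl1, Snrpn, Trappc9 and Ube3a. The median of all genes with 10 counts moved by 0.13 with a pseudocount of 5, 0.17 with median-of-ratios size factors, 0.19 with full-quantile normalization and -1.11 with TPM. The count test called 8 or 9 members higher and 17 to 22 lower under its alternatives. DESeq2 did not call Asb4, Slc38a4, Zim1, Zrsr1 and the higher Peg12, which edgeR did, and it called Ascl2, which edgeR did not test. No paired analysis was possible because only 1 sample stands on the side labelled ESC. The edgeR test with a MEF sample left out was not run, since no residual degree of freedom remains. Of the 21 lower members, 8 had under 10 counts in the library labelled ESC, where 1717838 counts limit the size of a fall that can be shown.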

Other observations

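Marker lists of further cell types were counted in the same way, as values without an explanation. Over all genes with a count, 21.9% were higher and 25.9% lower by the size rule. Of 4 endothelial markers, 2 were higher and 1 was lower in the library labelled ESC, with a summed TPM of 25.41 against 4.10 and 4.29 in the OG2 and ICR samples, and Pecam1 had 90 counts. Of 7 trophoblast markers, 2 were higher, Elf5 on 12 and Tfap2c on 3 counts, and 5 were at 0, with a summed TPM of 2.57 against 0.59 and 0.47. Of 6 blood and macrophage markers, 1 was higher, Hba-a1, with 45 counts. Of 4 neural markers, 2 were higher and 1 was lower with CPM, while their summed TPM was 67.72 against 116.44 and 114.69. Of 4 muscle markers, 2 were lower, with a summed TPM of 11.18 against 193.41 and 116.64. The blood and macrophage markers summed to 59.84 TPM against 20.98 and 13.10. Among epithelial markers, Krt14 had 414 counts and Krt8 had 177 in the library labelled ESC. The part of these cell types in the levels of the imprinted genes was not tested.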
